A study of Danio rerio with 36 samples.

Results

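The genes described here encode proteins that the liver secretes into plasma: the clotting cascade, plasminogen and the protease inhibitors, carriers of metals, haem, vitamins and hormones, fetuins, inter-alpha-inhibitor chains and vitronectins, and complement. They were chosen by name, as the genes of both count tables whose symbol stood in a list of 47 symbols. The list was chosen with earlier results of these data known, which limits every count set beside the share of all genes. Of these, 43 were found in both tables, out of 24860 genes in experiment 1 and 25077 in experiment 2. The symbols hrg, c4b, c7b and cfi were not matched and are not analysed here. Reads were counted in 36 libraries, each a pool of zebrafish heads cut in front of the swim bladder at 10 days of age. The larvae were mixed wild type, and both experiments had the same 3 groups. Axenic larvae had no microbes, re-colonized larvae were given microbes on day 1, and conventional larvae, the study's controls, were colonized in the usual way. In experiment 1 each group had 6 libraries, made from total RNA without ribosomal RNA. Experiment 2, made from polyA RNA, had 4 libraries from axenic, 7 from re-colonized and 7 from conventional larvae.

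Most plasma proteins other than antibodies are made by hepatocytes. Fibrinogen and the vitamin K-dependent factors form clots, plasmin dissolves them, and serpins and alpha-2-macroglobulins trap proteases. Complement is a chain of proteins that converges on C3, whose cleavage marks microbes for uptake and starts the assembly of the membrane attack complex from C5 to C9. In mammals many of these genes are acute phase genes, which the liver turns up or down when cytokines signal inflammation. In zebrafish several of them, C3 among them, exist as tandem copies.

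The samples were labelled as heads, and liver transcripts were present in every library. Markers of hepatocytes that are not among the 43 genes, 26 in all, summed to 4057 to 5584 CPM (counts scaled to the library total, with TMM factors) in axenic, 2593 to 4233 in re-colonized and 2215 to 3796 in conventional libraries of experiment 1. In experiment 2 the sums were 6248 to 9641 CPM in axenic, 2639 to 9756 in re-colonized and 8295 to 12256 in conventional libraries. Axenic libraries thus stood above conventional ones in experiment 1, with no overlap, while their median was the lower in experiment 2, at 8062 CPM in axenic against 10494 CPM in conventional libraries. The bile acid transporter gene slc10a1 was close to absent in experiment 2, with 27 counts over 18 libraries. How much of the liver each pool held was not measured, and in pooled tissue fewer cells of a type and less RNA per cell cannot be told apart. Total counts were 11716737 to 15017645 per library in experiment 1 and 15148068 to 25760598 in experiment 2. Library names of experiment 1 carry a tag, L7 for the conventional group and L6 for the other groups, whose meaning the labels do not state. Whatever it marks cannot be told apart from group in comparisons with conventional heads. In experiment 2, names end in the letter S and a number. Some conventional libraries repeat such a number of another group, while none repeats among axenic and re-colonized libraries. What these numbers mark is not stated either, and a batch effect was not tested. Re-colonized 1 and 7 of experiment 2 had TMM scaling factors of 1.55 and 1.38, against 0.769 to 1.21 in the other libraries of that experiment. The labels do not state whether pools were of different spawns, and the p-values therefore reflect the spread between these pools alone.

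Across the 43 genes, every call pointed the same way: transcripts were higher in axenic heads. Calls are adjusted p-values (Benjamini-Hochberg, over all genes tested) under 0.05 in the quasi-likelihood test of edgeR. Against conventional heads of experiment 1, 14 of 42 tested members were higher and 0 lower, where 8.89% of all tested genes were called higher and 6.71% lower. Against re-colonized heads, 12 of 42 were higher and 0 lower, beside 8.67% and 8.27% of all genes. In experiment 2 there were 9 of 43 higher against conventional heads (3.99% of all genes higher, 2.15% lower) and 27 of 43 higher against re-colonized heads (3.25% higher, 0.64% lower), again with 0 lower. At an unadjusted p below 0.05 no member was lower in any of the 4 comparisons, and neither DESeq2 nor limma voom called one lower. Lower calls appeared with 1 alternative, the hepatocyte marker sum as a covariate, which gave 3 in each comparison of experiment 1. Over all 19727 genes it called 606 lower against conventional and 1050 lower against re-colonized heads of experiment 1. The marker sums of that experiment set axenic libraries largely apart from the others, which limits every result with this covariate there. The median log2 fold change (axenic over the other group) of the members was 0.41 and 0.42 against conventional and re-colonized heads in experiment 1, and 0.72 and 1.21 in experiment 2, while that of all tested genes was between -0.01 and 0.04. Of the 43, 33 were called in at least 1 comparison. The share of all genes called in at least 1 was not counted, so 33 cannot be set beside it. The 10 never called were f5, f9b, serpinc1, fetub, vtna, c3a.3, cfb, c6, c8a and c8g. Both comparisons of an experiment share the axenic libraries, so their calls are not independent of each other.

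**Figure D1:**
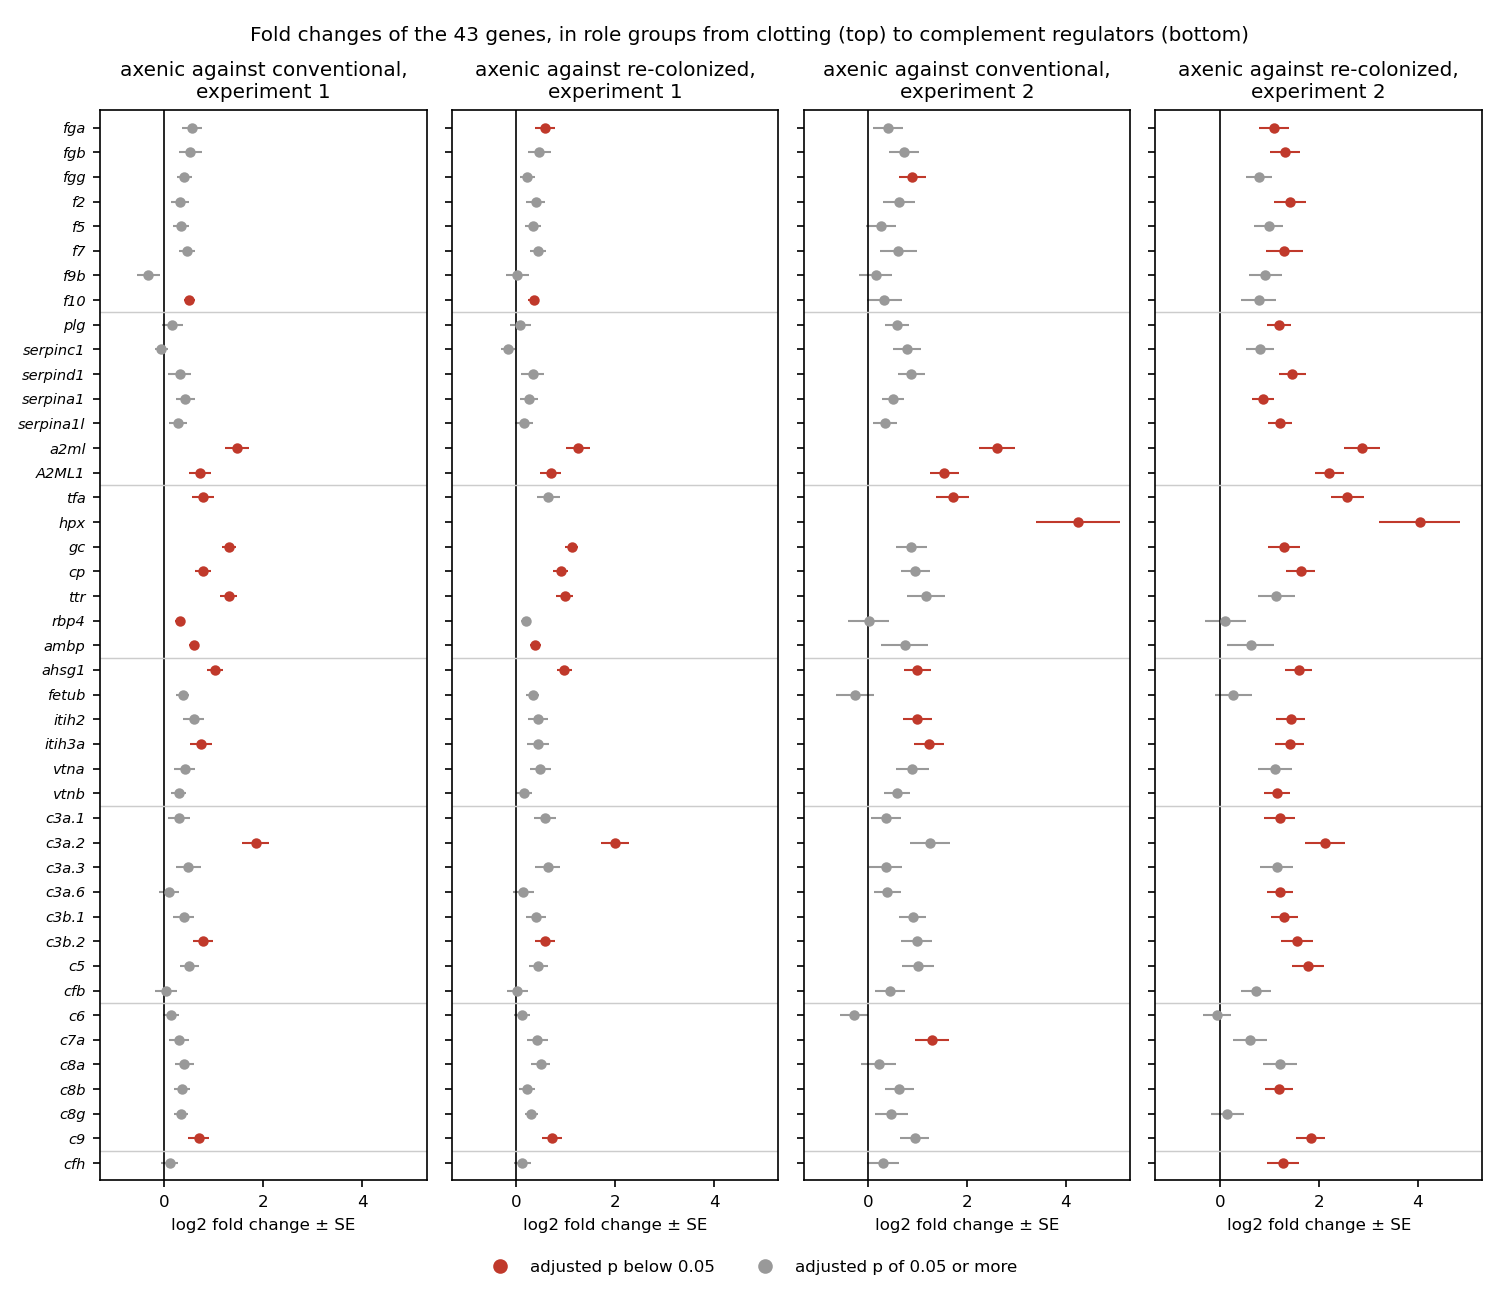
Log2 fold changes (axenic over the other group) with their SE for the 43 genes in the 4 comparisons of axenic heads, from edgeR, with red points for an adjusted p below 0.05. All red points lie right of 0, and hpx was not tested in experiment 1. The 27 calls against re-colonized heads of experiment 2 contrast with 9 against conventional heads of the same experiment.

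Only a2ml, A2ML1 (listed as 1 of many copies) and ahsg1 were called in all 4 comparisons. How many of all genes were called in all 4 was not counted.

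a2ml encodes an alpha-2-macroglobulin-like protein, a large plasma protease trap that snares enzymes of host and microbe. a2ml ran from 33.1 to 65.6 (median 45.9) CPM in axenic libraries of experiment 1, against 9.59 to 28.3 (median 22.6) in re-colonized and 9.65 to 24.9 (median 17.4) in conventional ones. a2ml in experiment 2 stood at 50.2, 85.6, 124 and 328 CPM in axenic libraries 1, 3, 4 and 7, against 13.1 to 25.4 (median 20.7) in re-colonized and 12.4 to 46.7 (median 22.1) in conventional ones. Axenic libraries of a2ml lay above every colonized library in both experiments. For a2ml, edgeR gave log2 fold changes (± SE) of 1.47 ± 0.24 (adjusted p = 0.000126) against conventional and 1.25 ± 0.24 (adjusted p = 0.000611) against re-colonized heads in experiment 1. a2ml had log2 fold changes of 2.61 ± 0.37 (adjusted p = 0.000145) against conventional and 2.88 ± 0.37 (adjusted p = 0.000174) against re-colonized heads in experiment 2. Without axenic 7 the log2 fold changes of a2ml in experiment 2 were 1.81 and 2.09 against conventional and re-colonized heads (adjusted p = 0.00268 and 0.00238), still called. a2ml with the hepatocyte marker sum as a covariate had log2 fold changes of 0.55 (adjusted p = 0.192) against conventional heads of experiment 1 and 0.58 (adjusted p = 0.0792) against re-colonized heads of experiment 1, which ended both calls.

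A2ML1 is a further member of that family, on chromosome 3. A2ML1 ran from 160.3 to 318 (median 224) CPM in axenic libraries of experiment 1, against 78.5 to 194 (median 158) in re-colonized and 116 to 179 (median 130.2) in conventional ones. A2ML1 in experiment 2 stood at 163, 237, 393 and 545 CPM in axenic libraries 1, 3, 4 and 7, against 45.5 to 105 (median 66.8) in re-colonized and 56.1 to 163 (median 107) in conventional ones. Axenic libraries of A2ML1 overlapped both colonized groups in experiment 1, and in experiment 2 they lay above every colonized library. For A2ML1, edgeR gave log2 fold changes (± SE) of 0.72 ± 0.21 (adjusted p = 0.0223) against conventional and 0.70 ± 0.21 (adjusted p = 0.0253) against re-colonized heads in experiment 1. A2ML1 had log2 fold changes of 1.54 ± 0.29 (adjusted p = 0.00239) against conventional and 2.21 ± 0.29 (adjusted p = 0.000212) against re-colonized heads in experiment 2. A2ML1 against conventional heads of experiment 1 lost its call without axenic F or H or conventional C, F or G (adjusted p between 0.0511 and 0.0623). A2ML1 against re-colonized heads of experiment 1 lost its call without axenic A, F or H or re-colonized D, F or G (adjusted p between 0.051 and 0.0677). A2ML1 with the hepatocyte marker sum as a covariate had log2 fold changes of -0.13 (adjusted p = 0.795) against conventional heads of experiment 1 and 0.11 (adjusted p = 0.779) against re-colonized heads of experiment 1, which ended both calls.

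ahsg1 encodes a fetuin-A, a serum glycoprotein that in mammals keeps calcium phosphate in solution. ahsg1 ran from 38.4 to 45.4 (median 43.2) CPM in axenic libraries of experiment 1, against 14.7 to 28.9 (median 23.6) in re-colonized and 13.1 to 30.6 (median 20.4) in conventional ones. ahsg1 in experiment 2 stood at 69.1, 84.6, 67.8 and 61.9 CPM in axenic libraries 1, 3, 4 and 7, against 11.3 to 37.4 (median 23.1) in re-colonized and 22.7 to 49.5 (median 29.2) in conventional ones. Axenic libraries of ahsg1 lay above every colonized library in both experiments. For ahsg1, edgeR gave log2 fold changes (± SE) of 1.02 ± 0.16 (adjusted p = 6.89e-05) against conventional and 0.98 ± 0.16 (adjusted p = 9.81e-05) against re-colonized heads in experiment 1. ahsg1 had log2 fold changes of 1.000 ± 0.27 (adjusted p = 0.0298) against conventional and 1.59 ± 0.27 (adjusted p = 0.00154) against re-colonized heads in experiment 2. ahsg1 against conventional heads of experiment 2 lost its call without axenic 1, 3, 4 or 7 or conventional 1, 3 or 6 (adjusted p between 0.0534 and 0.0962). Without 1 of these libraries its log2 fold change was between 0.89 and 1.02. ahsg1 with the hepatocyte marker sum as a covariate had log2 fold changes of 0.42 (adjusted p = 0.111) against conventional heads of experiment 1 and 0.53 (adjusted p = 0.0124) against re-colonized heads of experiment 1, and the call against conventional heads was lost and the call against re-colonized heads was kept. The coefficient of variation of ahsg1 was only 6.04% over axenic libraries of experiment 1, against 25.8% over re-colonized and 27.8% over conventional ones.

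**Figure D2:**
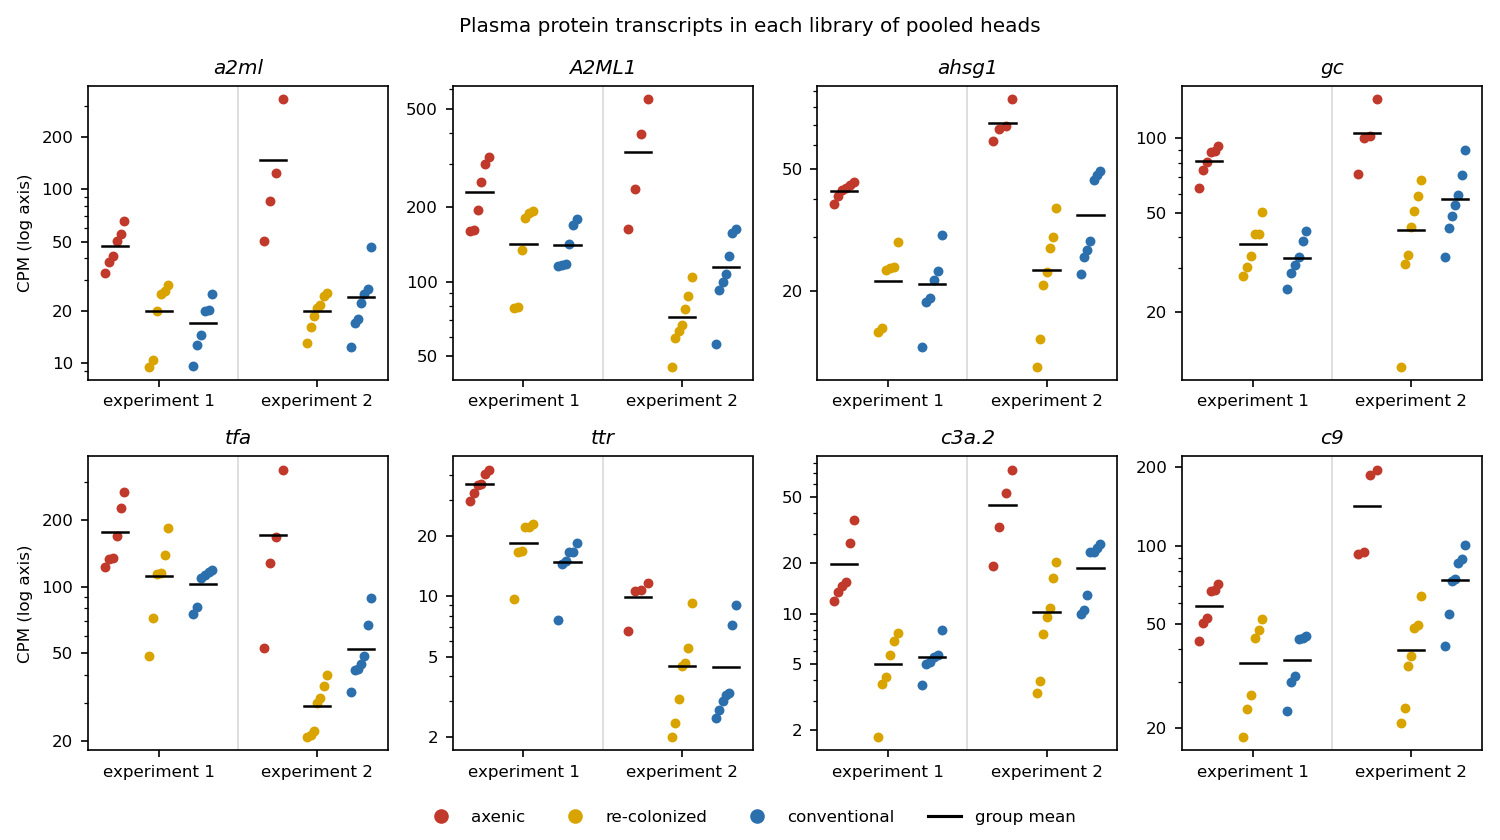
CPM of 8 of the genes in every library (points, log axis) with the group mean (line), from left to right axenic, re-colonized and conventional libraries of each experiment. Axenic points of a2ml and ahsg1 lie above all others in both experiments, and axenic 7 of experiment 2 reaches 328 CPM for a2ml.

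Clotting genes had few calls outside axenic against re-colonized heads of experiment 2. Of 8, 1 was higher against conventional heads of experiment 1 (median log2 fold change 0.43) and 2 against re-colonized heads (median 0.38). Experiment 2 gave 1 of 8 (median 0.51) and 4 of 8 (median 1.04). Over all tested genes the shares called higher were 8.89% and 8.67% in experiment 1 and 3.99% and 3.25% in experiment 2. Counts of 1 or 2 are too small to be set apart from those shares.

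f10 encodes factor X, the protease that activates prothrombin. f10 ran from 25.9 to 34.9 (median 31.7) CPM in axenic libraries of experiment 1, against 18.9 to 27.6 (median 26.1) in re-colonized and 16.8 to 25.6 (median 22.04) in conventional ones. f10 in experiment 2 stood at 214, 204, 225 and 130.2 CPM in axenic libraries 1, 3, 4 and 7, against 32.5 to 185 (median 102) in re-colonized and 86.2 to 252 (median 137) in conventional ones. Axenic libraries of f10 lay above every conventional library but overlapped the re-colonized ones in experiment 1, and in experiment 2 they overlapped both colonized groups. For f10, edgeR gave log2 fold changes (± SE) of 0.50 ± 0.11 (adjusted p = 0.00266) against conventional and 0.36 ± 0.11 (adjusted p = 0.0255) against re-colonized heads in experiment 1. f10 had log2 fold changes of 0.33 ± 0.35 (adjusted p = 0.653) against conventional and 0.78 ± 0.35 (adjusted p = 0.288) against re-colonized heads in experiment 2. f10 against re-colonized heads of experiment 1 lost its call without axenic A or F or re-colonized D or G (adjusted p between 0.0588 and 0.0714). f10 with the hepatocyte marker sum as a covariate had log2 fold changes of 0.12 (adjusted p = 0.637) against conventional heads of experiment 1 and 0.075 (adjusted p = 0.742) against re-colonized heads of experiment 1, which ended both calls.

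f7, its neighbour, encodes factor VII, which starts clotting together with tissue factor. f7 ran from 7.86 to 11.6 (median 9.49) CPM in axenic, 4.31 to 9.09 (median 7.303) in re-colonized and 4.97 to 9.796 (median 6.76) in conventional libraries of experiment 1. f7 in experiment 2 stood at 25.4, 36.1, 27.6 and 18.9 CPM in axenic libraries 1, 3, 4 and 7, against 3.03 to 16.5 (median 12.9) in re-colonized and 9.33 to 38.9 (median 15.5) in conventional ones. Axenic libraries of f7 overlapped both colonized groups in experiment 1, and in experiment 2 they lay above every re-colonized library but overlapped the conventional ones. For f7, edgeR gave 0.46 ± 0.16 (adjusted p = 0.0582) against conventional and 0.44 ± 0.16 (adjusted p = 0.066) against re-colonized heads in experiment 1, and 0.61 ± 0.37 (adjusted p = 0.367) and 1.31 ± 0.37 (adjusted p = 0.0458) in experiment 2. f7 against re-colonized heads of experiment 2 lost its call without axenic 1, 3, 4 or 7 or re-colonized 1, 3, 4, 5, 6 or 7, with DESeq2's size factors, with a filter at a mean of 1 CPM or without re-colonized 1 and 7 together (adjusted p between 0.0526 and 0.153). Without 1 of these libraries its log2 fold change was between 1.12 and 1.42. f7 with the hepatocyte marker sum as a covariate had a log2 fold change of 0.96 (adjusted p = 0.0661) against re-colonized heads of experiment 2, which ended the call.

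The 3 fibrinogen chains, which polymerise into the clot, were called in different comparisons: fga against re-colonized heads in both experiments, fgb against re-colonized heads of experiment 2 and fgg against conventional heads of experiment 2. fga encodes the alpha chain. fga ran from 74 to 140.3 (median 105) CPM in axenic, 37.6 to 103 (median 74.4) in re-colonized and 57.9 to 93.9 (median 71.9) in conventional libraries of experiment 1. fga in experiment 2 stood at 118, 132, 270 and 244 CPM in axenic libraries 1, 3, 4 and 7, against 39.2 to 161 (median 90.2) in re-colonized and 114 to 193 (median 135) in conventional ones. Axenic libraries of fga overlapped both colonized groups in both experiments. For fga, edgeR gave 0.56 ± 0.20 (adjusted p = 0.0635) against conventional and 0.59 ± 0.20 (adjusted p = 0.0457) against re-colonized heads in experiment 1, and 0.41 ± 0.31 (adjusted p = 0.494) and 1.102 ± 0.30 (adjusted p = 0.0422) in experiment 2. fga against re-colonized heads of experiment 1 lost its call without axenic A, F or H or re-colonized D, F or G, with DESeq2 or with the pair of groups fitted alone (adjusted p between 0.0676 and 0.115). fga against re-colonized heads of experiment 2 lost its call without axenic 4 or 7 or re-colonized 1, 3, 5, 6 or 7, with DESeq2's size factors, with the pair of groups fitted alone or without re-colonized 1 and 7 together (adjusted p between 0.0585 and 0.269). fga with the hepatocyte marker sum as a covariate had log2 fold changes of 0.049 (adjusted p = 0.913) against re-colonized heads of experiment 1 and 0.96 (adjusted p = 0.0528) against re-colonized heads of experiment 2, which ended both calls. fgb encodes the beta chain. fgb ran from 33.95 to 75.2 (median 55.03) CPM in axenic, 17.96 to 62.2 (median 43.2) in re-colonized and 28.5 to 50.6 (median 37.4) in conventional libraries of experiment 1. fgb in experiment 2 stood at 14.6, 22.01, 45.2 and 63.7 CPM in axenic libraries 1, 3, 4 and 7, against 9.48 to 23.9 (median 13.4) in re-colonized and 15.7 to 27.9 (median 22.1) in conventional ones. Axenic libraries of fgb overlapped both colonized groups in both experiments. For fgb, edgeR gave 0.53 ± 0.23 (adjusted p = 0.127) against conventional and 0.47 ± 0.23 (adjusted p = 0.174) against re-colonized heads in experiment 1, and 0.72 ± 0.31 (adjusted p = 0.177) and 1.31 ± 0.31 (adjusted p = 0.0158) in experiment 2. fgb against re-colonized heads of experiment 2 lost its call without axenic 4 or 7, with limma voom or without re-colonized 1 and 7 together (adjusted p between 0.0632 and 0.248).

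fgg encodes the gamma chain. fgg ran from 38.3 to 66.2 (median 50.2) CPM in axenic, 26.99 to 53.4 (median 49.4) in re-colonized and 27.4 to 46.97 (median 39.8) in conventional libraries of experiment 1. fgg in experiment 2 stood at 7.02, 11.4, 11.6 and 15.9 CPM in axenic libraries 1, 3, 4 and 7, against 4.83 to 11.2 (median 5.64) in re-colonized and 3.94 to 9.17 (median 5.97) in conventional ones. Axenic libraries of fgg overlapped both colonized groups in both experiments. For fgg, edgeR gave 0.40 ± 0.15 (adjusted p = 0.0813) against conventional and 0.22 ± 0.15 (adjusted p = 0.364) against re-colonized heads in experiment 1, and 0.90 ± 0.27 (adjusted p = 0.0491) and 0.80 ± 0.27 (adjusted p = 0.115) in experiment 2. fgg against conventional heads of experiment 2 lost its call without axenic 3, 4 or 7 or conventional 1, 2, 3, 4 or 6, with DESeq2's size factors, with no filter on low counts, with a filter at a mean of 1 CPM or with the pair of groups fitted alone (adjusted p between 0.0541 and 0.295). fgg with the hepatocyte marker sum as a covariate had a log2 fold change of 0.85 (adjusted p = 0.11) against conventional heads of experiment 2, which ended the call.

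Prothrombin (f2) was called once, at 1.42 ± 0.32 (adjusted p = 0.0133) against re-colonized heads of experiment 2. f2 against re-colonized heads of experiment 2 lost its call without axenic 4 or 7 or without re-colonized 1 and 7 together (adjusted p between 0.0794 and 0.136). The cofactor f5 and the factor IX gene f9b were not called, with log2 fold changes of -0.32 (f9b against conventional heads of experiment 1) to 0.98 (f5 against re-colonized heads of experiment 2).

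Plasminogen and the 4 serpins are the rest of a role group of 7 genes that also holds a2ml and A2ML1, both called in all 4 comparisons. These 5 were called by edgeR in 1 comparison at most, which is no result about the whole group. None of the 5 was called in experiment 1 or against conventional heads of experiment 2 by edgeR. Against re-colonized heads of experiment 2, 4 were higher, beside 3.25% of all genes. serpina1 and serpina1l are neighbouring copies of alpha-1-antitrypsin, the main plasma inhibitor of neutrophil elastase. serpina1l ran from 176 to 359 (median 215) CPM in axenic, 133 to 276 (median 204) in re-colonized and 134 to 257 (median 194) in conventional libraries of experiment 1. serpina1l in experiment 2 stood at 48.1, 55.6, 100.5 and 68.99 CPM in axenic libraries 1, 3, 4 and 7, against 19.2 to 44.5 (median 26.9) in re-colonized and 41.04 to 77.6 (median 48.05) in conventional ones. Axenic libraries of serpina1l overlapped both colonized groups in experiment 1, and in experiment 2 they lay above every re-colonized library but overlapped the conventional ones. For serpina1l, edgeR gave 0.27 ± 0.18 (adjusted p = 0.355) against conventional and 0.16 ± 0.18 (adjusted p = 0.601) against re-colonized heads in experiment 1, and 0.34 ± 0.25 (adjusted p = 0.477) and 1.21 ± 0.25 (adjusted p = 0.00616) in experiment 2. serpina1l against re-colonized heads of experiment 2 lost its call without axenic 4 (adjusted p = 0.0509). serpina1l with the hepatocyte marker sum as a covariate was called lower in experiment 1, at -0.55 (adjusted p = 0.0255) against conventional and -0.44 (adjusted p = 0.0298) against re-colonized heads.

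serpina1 had the higher log2 fold change of the pair in 3 of 4 comparisons and serpina1l in the other, axenic against re-colonized heads of experiment 2. serpina1 ran from 169.8 to 216 (median 211) CPM in axenic, 99.8 to 232 (median 175) in re-colonized and 88.5 to 189.7 (median 161) in conventional libraries of experiment 1. serpina1 in experiment 2 stood at 36.05, 43.9, 62.2 and 58.9 CPM in axenic libraries 1, 3, 4 and 7, against 16.1 to 36.7 (median 27.8) in re-colonized and 24.7 to 43.8 (median 36.4) in conventional ones. Axenic libraries of serpina1 overlapped both colonized groups in both experiments. For serpina1, edgeR gave 0.42 ± 0.19 (adjusted p = 0.135) against conventional and 0.26 ± 0.19 (adjusted p = 0.393) against re-colonized heads in experiment 1, and 0.50 ± 0.22 (adjusted p = 0.186) and 0.87 ± 0.22 (adjusted p = 0.0221) in experiment 2. serpina1 against re-colonized heads of experiment 2 lost its call without axenic 4 or 7 or re-colonized 7 or without re-colonized 1 and 7 together (adjusted p between 0.0656 and 0.152). serpind1 encodes heparin cofactor II, a thrombin inhibitor. serpind1 ran from 6.89 to 14.5 (median 9.63) CPM in axenic, 4.39 to 14.8 (median 7.92) in re-colonized and 5.198 to 11.7 (median 8.08) in conventional libraries of experiment 1. serpind1 in experiment 2 stood at 4.68, 5.85, 10.3 and 13.4 CPM in axenic libraries 1, 3, 4 and 7, against 2.33 to 4.28 (median 3.16) in re-colonized and 3.23 to 6.63 (median 4.65) in conventional ones. Axenic libraries of serpind1 overlapped both colonized groups in experiment 1, and in experiment 2 they lay above every re-colonized library but overlapped the conventional ones. For serpind1, edgeR gave 0.31 ± 0.23 (adjusted p = 0.403) against conventional and 0.33 ± 0.23 (adjusted p = 0.366) against re-colonized heads in experiment 1, and 0.88 ± 0.28 (adjusted p = 0.0624) and 1.47 ± 0.28 (adjusted p = 0.00347) in experiment 2. serpind1 against re-colonized heads of experiment 2 lost its call without axenic 7 (adjusted p = 0.0591).

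Plasminogen (plg) is the precursor of plasmin, the protease that dissolves clots. For plg, edgeR gave 0.15 ± 0.21 (adjusted p = 0.684) against conventional and 0.08 ± 0.21 (adjusted p = 0.844) against re-colonized heads in experiment 1, and 0.59 ± 0.24 (adjusted p = 0.169) and 1.21 ± 0.24 (adjusted p = 0.00568) in experiment 2. plg against re-colonized heads of experiment 2 lost its call without axenic 7 (adjusted p = 0.0719). plg with the hepatocyte marker sum as a covariate was called lower in experiment 1, at -0.76 (adjusted p = 0.0136) against conventional and -0.58 (adjusted p = 0.021) against re-colonized heads. Antithrombin (serpinc1) was not called, at -0.06 ± 0.14 (adjusted p = 0.821) against conventional and -0.17 ± 0.14 (adjusted p = 0.442) against re-colonized heads of experiment 1, and 0.79 ± 0.28 (adjusted p = 0.106) and 0.82 ± 0.28 (adjusted p = 0.128) in experiment 2.

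Carriers had the most calls of any group in experiment 1, where 6 of 6 tested members were higher against conventional heads (median log2 fold change 0.78) and 4 of 6 against re-colonized heads (median 0.77). In experiment 2, 2 of 7 and 4 of 7 were higher, with medians of 0.95 and 1.29. Both counts and both medians include hpx, whose limit is given below. The shares of all genes called higher were 8.89% and 8.67% in experiment 1 and 3.99% and 3.25% in experiment 2.

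gc encodes the vitamin D-binding protein. gc ran from 63.05 to 93.1 (median 84.4) CPM in axenic libraries of experiment 1, against 27.8 to 50.6 (median 37.4) in re-colonized and 24.6 to 42.5 (median 31.98) in conventional ones. gc in experiment 2 stood at 101, 144, 103 and 72.01 CPM in axenic libraries 1, 3, 4 and 7, against 12.04 to 68.3 (median 43.99) in re-colonized and 33.2 to 89.6 (median 53.8) in conventional ones. Axenic libraries of gc lay above every colonized library in experiment 1, and in experiment 2 they lay above every re-colonized library but overlapped the conventional ones. For gc, edgeR gave log2 fold changes (± SE) of 1.30 ± 0.14 (adjusted p = 4.99e-07) against conventional and 1.12 ± 0.14 (adjusted p = 3.7e-06) against re-colonized heads in experiment 1. gc had log2 fold changes of 0.88 ± 0.32 (adjusted p = 0.11) against conventional and 1.29 ± 0.32 (adjusted p = 0.022) against re-colonized heads in experiment 2. gc against re-colonized heads of experiment 2 lost its call without axenic 3, 4 or 7 or re-colonized 4 or 7 or without re-colonized 1 and 7 together (adjusted p between 0.0517 and 0.0857).

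Transthyretin (ttr) carries thyroid hormone. ttr ran from 29.6 to 42.5 (median 35.9) CPM in axenic libraries of experiment 1, against 9.68 to 22.96 (median 19.3) in re-colonized and 7.63 to 18.3 (median 15.7) in conventional ones. ttr in experiment 2 stood at 10.7, 10.6, 11.7 and 6.68 CPM in axenic libraries 1, 3, 4 and 7, against 1.99 to 9.29 (median 4.47) in re-colonized and 2.47 to 9.02 (median 3.23) in conventional ones. Axenic libraries of ttr lay above every colonized library in experiment 1, and in experiment 2 they overlapped both colonized groups. For ttr, edgeR gave log2 fold changes (± SE) of 1.30 ± 0.18 (adjusted p = 1.43e-05) against conventional and 0.98 ± 0.17 (adjusted p = 0.000282) against re-colonized heads in experiment 1. ttr had log2 fold changes of 1.17 ± 0.38 (adjusted p = 0.0691) against conventional and 1.14 ± 0.38 (adjusted p = 0.105) against re-colonized heads in experiment 2. ttr with the hepatocyte marker sum as a covariate had log2 fold changes of 0.65 (adjusted p = 0.0389) against conventional heads of experiment 1 and 0.50 (adjusted p = 0.0566) against re-colonized heads of experiment 1, and the call against conventional heads was kept and the call against re-colonized heads was lost.

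Ceruloplasmin (cp) is a copper-carrying ferroxidase. cp ran from 76.3 to 124 (median 93.5) CPM in axenic libraries of experiment 1, against 32.8 to 71.5 (median 51.9) in re-colonized and 45.96 to 64.2 (median 56.6) in conventional ones. cp in experiment 2 stood at 362, 569, 462 and 405 CPM in axenic libraries 1, 3, 4 and 7, against 43.9 to 224 (median 142) in re-colonized and 146 to 304 (median 245) in conventional ones. Axenic libraries of cp lay above every colonized library in both experiments. For cp, edgeR gave log2 fold changes (± SE) of 0.78 ± 0.15 (adjusted p = 0.000819) against conventional and 0.90 ± 0.15 (adjusted p = 0.000181) against re-colonized heads in experiment 1. cp had log2 fold changes of 0.95 ± 0.29 (adjusted p = 0.0549) against conventional and 1.63 ± 0.29 (adjusted p = 0.0021) against re-colonized heads in experiment 2. cp with the hepatocyte marker sum as a covariate had a log2 fold change of 0.45 (adjusted p = 0.219) against conventional heads of experiment 1, which ended the call. Although the values of cp did not overlap, its adjusted p missed the threshold against conventional heads of experiment 2.

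ambp encodes the precursor of alpha-1-microglobulin and bikunin. ambp ran from 40.9 to 49.2 (median 45.3) CPM in axenic libraries of experiment 1, against 24.02 to 40.96 (median 36.9) in re-colonized and 24.6 to 33.1 (median 30.8) in conventional ones. ambp in experiment 2 stood at 46.96, 46.2, 23.6 and 25.9 CPM in axenic libraries 1, 3, 4 and 7, against 4.54 to 44.3 (median 17.6) in re-colonized and 9.33 to 51.1 (median 18.1) in conventional ones. Axenic libraries of ambp lay above every conventional library but overlapped the re-colonized ones in experiment 1, and in experiment 2 they overlapped both colonized groups. For ambp, edgeR gave log2 fold changes (± SE) of 0.60 ± 0.11 (adjusted p = 0.000368) against conventional and 0.39 ± 0.11 (adjusted p = 0.0135) against re-colonized heads in experiment 1. ambp had log2 fold changes of 0.74 ± 0.48 (adjusted p = 0.405) against conventional and 0.63 ± 0.48 (adjusted p = 0.606) against re-colonized heads in experiment 2. ambp with the hepatocyte marker sum as a covariate had log2 fold changes of 0.24 (adjusted p = 0.27) against conventional heads of experiment 1 and 0.13 (adjusted p = 0.517) against re-colonized heads of experiment 1, which ended both calls. The highest conventional library of ambp in experiment 2 exceeded all axenic ones.

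Transferrin (tfa) carries iron. tfa ran from 123 to 269.5 (median 153) CPM in axenic libraries of experiment 1, against 48.5 to 184 (median 115) in re-colonized and 75.5 to 119.7 (median 112) in conventional ones. tfa in experiment 2 stood at 53.03, 129, 168 and 339 CPM in axenic libraries 1, 3, 4 and 7, against 20.9 to 39.9 (median 29.8) in re-colonized and 33.6 to 89.4 (median 44.8) in conventional ones. Axenic libraries of tfa lay above every conventional library but overlapped the re-colonized ones in experiment 1, and in experiment 2 they lay above every re-colonized library but overlapped the conventional ones. For tfa, edgeR gave log2 fold changes (± SE) of 0.78 ± 0.23 (adjusted p = 0.0226) against conventional and 0.65 ± 0.23 (adjusted p = 0.0545) against re-colonized heads in experiment 1. tfa had log2 fold changes of 1.71 ± 0.33 (adjusted p = 0.00267) against conventional and 2.58 ± 0.33 (adjusted p = 0.000174) against re-colonized heads in experiment 2. tfa against conventional heads of experiment 1 lost its call without axenic A or F or conventional C or F (adjusted p between 0.0547 and 0.082). tfa against conventional heads of experiment 2 lost its call without axenic 7 (adjusted p = 0.0678). Without axenic 7, the log2 fold change of tfa against conventional heads of experiment 2 was 1.1. tfa with the hepatocyte marker sum as a covariate had a log2 fold change of 0.056 (adjusted p = 0.945) against conventional heads of experiment 1, which ended the call.

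Retinol-binding protein (rbp4), the carrier of vitamin A, was called once, at 0.31 ± 0.10 (adjusted p = 0.0324) against conventional heads of experiment 1, and had 0.02 ± 0.41 (adjusted p = 0.988) against conventional heads of experiment 2. rbp4 against conventional heads of experiment 1 lost its call without axenic A, C or D or conventional A, B, C or F (adjusted p between 0.0508 and 0.0887). With replicate letters as a block the call was lost too (adjusted p = 0.0527). rbp4 with the hepatocyte marker sum as a covariate had a log2 fold change of 0.18 (adjusted p = 0.495) against conventional heads of experiment 1, which ended the call.

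Hemopexin (hpx), the haem scavenger, was singled out after its values were seen, because its fold changes were the largest. Experiment 1 held 56 counts over 6 axenic, 9 over 6 re-colonized and 9 over 6 conventional libraries, too few for the test. The ratio of CPM was 5.51 against re-colonized (95% interval 2.71 to 12.7) and 5.74 against conventional heads (95% interval 2.82 to 13.2), intervals that cover counting error only. hpx in experiment 2 stood at 0.847, 3.48, 0.604 and 12.8 CPM in axenic libraries 1, 3, 4 and 7, against 0 to 0.441 (median 0.31) in re-colonized and 0 to 0.885 (median 0.0475) in conventional ones. All 4 axenic libraries of hpx were above the re-colonized ones, and axenic 3 and 7 above all others. In experiment 2 hpx passed the filter on low counts mostly through its axenic libraries, so a lower call was unlikely from the start. Its calls carry this limit, both among the 9 and 27 of that experiment and in its counts of carriers. hpx had log2 fold changes of 4.24 ± 0.84 (adjusted p = 0.00331) against conventional and 4.04 ± 0.81 (adjusted p = 0.00542) against re-colonized heads in experiment 2. Without axenic 7 the values were 2.77 (adjusted p = 0.132) and 2.59 (adjusted p = 0.215), so both calls were lost, and without conventional 2 the first was 5.15 (adjusted p = 0.00135).

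Among fetuins, inter-alpha-inhibitor chains and vitronectins, 2 of 6 were higher against conventional and 1 of 6 against re-colonized heads of experiment 1, with medians of 0.50 and 0.44. Experiment 2 gave 3 of 6 and 4 of 6, with medians of 0.95 and 1.29. Beside them, 8.89% and 8.67% of all genes were higher in experiment 1 and 3.99% and 3.25% in experiment 2. The counts of 1 and 2 in experiment 1 are too small to be set apart from those shares.

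fetub, the fetuin-B gene next to ahsg1, was not called in any comparison. fetub ran from 610.4 to 869.7 (median 772) CPM in axenic, 429.6 to 766 (median 606) in re-colonized and 492 to 678 (median 586) in conventional libraries of experiment 1. fetub in experiment 2 stood at 4874, 7430, 6746 and 3375 CPM in axenic libraries 1, 3, 4 and 7, against 989 to 6899 (median 4400) in re-colonized and 5109 to 10775 (median 5599) in conventional ones. Axenic libraries of fetub overlapped both colonized groups in both experiments. For fetub, edgeR gave 0.37 ± 0.13 (adjusted p = 0.0557) against conventional and 0.34 ± 0.13 (adjusted p = 0.0805) against re-colonized heads in experiment 1, and -0.27 ± 0.38 (adjusted p = 0.757) and 0.27 ± 0.38 (adjusted p = 0.807) in experiment 2. itih2 and itih3a encode heavy chains of inter-alpha-inhibitor, which bind hyaluronan. itih2 ran from 37.6 to 69.9 (median 49.4) CPM in axenic, 20.1 to 54.4 (median 38.5) in re-colonized and 20.8 to 42.8 (median 34.1) in conventional libraries of experiment 1. itih2 in experiment 2 stood at 18.7, 25.5, 57.3 and 65.3 CPM in axenic libraries 1, 3, 4 and 7, against 11.6 to 23.5 (median 13.3) in re-colonized and 13.9 to 31.2 (median 19.3) in conventional ones. Axenic libraries of itih2 overlapped both colonized groups in both experiments. For itih2, edgeR gave 0.59 ± 0.20 (adjusted p = 0.0516) against conventional and 0.44 ± 0.20 (adjusted p = 0.147) against re-colonized heads in experiment 1, and 0.996 ± 0.29 (adjusted p = 0.0438) and 1.43 ± 0.29 (adjusted p = 0.006) in experiment 2. itih2 against conventional heads of experiment 2 lost its call without axenic 4 or 7 or conventional 1, 2, 3, 5 or 6, with DESeq2's size factors, with limma voom, with a filter at a mean of 1 CPM or with the pair of groups fitted alone (adjusted p between 0.0505 and 0.339). itih2 against re-colonized heads of experiment 2 lost its call without axenic 7 (adjusted p = 0.0937). itih2 with the hepatocyte marker sum as a covariate had a log2 fold change of 1.05 (adjusted p = 0.0674) against conventional heads of experiment 2, which ended the call.

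itih3a ran from 9.53 to 27.5 (median 14.7) CPM in axenic, 6.67 to 16.3 (median 12.5) in re-colonized and 6.82 to 12.5 (median 9.52) in conventional libraries of experiment 1. itih3a in experiment 2 stood at 3.24, 3.89, 7.18 and 12.9 CPM in axenic libraries 1, 3, 4 and 7, against 1.95 to 3.63 (median 2.43) in re-colonized and 2.13 to 3.92 (median 2.88) in conventional ones. Axenic libraries of itih3a overlapped both colonized groups in both experiments. For itih3a, edgeR gave 0.74 ± 0.22 (adjusted p = 0.0245) against conventional and 0.44 ± 0.22 (adjusted p = 0.184) against re-colonized heads in experiment 1, and 1.24 ± 0.30 (adjusted p = 0.0143) and 1.41 ± 0.30 (adjusted p = 0.00762) in experiment 2. itih3a against conventional heads of experiment 1 lost its call without axenic H or conventional C or F (adjusted p between 0.0606 and 0.0809). itih3a against conventional heads of experiment 2 lost its call without axenic 7 or with limma voom (adjusted p between 0.0552 and 0.252). itih3a against re-colonized heads of experiment 2 lost its call without axenic 7 (adjusted p = 0.168). itih3a with the hepatocyte marker sum as a covariate had log2 fold changes of -0.22 (adjusted p = 0.616) against conventional heads of experiment 1 and 1.12 (adjusted p = 0.0565) against conventional heads of experiment 2, which ended both calls. vtnb and vtna encode copies of vitronectin, an adhesion protein that also binds the terminal complement complex. vtnb ran from 8.74 to 15.04 (median 13.2) CPM in axenic, 8.32 to 15.8 (median 11.1) in re-colonized and 8.58 to 12.8 (median 10.8) in conventional libraries of experiment 1. vtnb in experiment 2 stood at 5.43, 6.91, 15.2 and 17.6 CPM in axenic libraries 1, 3, 4 and 7, against 3.801 to 6.47 (median 4.41) in re-colonized and 5.55 to 8.93 (median 7.57) in conventional ones. Axenic libraries of vtnb overlapped both colonized groups in both experiments. For vtnb, edgeR gave 0.29 ± 0.16 (adjusted p = 0.234) against conventional and 0.16 ± 0.16 (adjusted p = 0.555) against re-colonized heads in experiment 1, and 0.58 ± 0.27 (adjusted p = 0.218) and 1.16 ± 0.27 (adjusted p = 0.0141) in experiment 2. vtnb against re-colonized heads of experiment 2 lost its call without axenic 4 or 7, with limma voom or without re-colonized 1 and 7 together (adjusted p between 0.0775 and 0.18). vtna was not called, at 0.41 to 1.12 over the 4 comparisons.

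Of the C3, C5 and factor B genes, 2 of 8 were higher against either colonized group of experiment 1 (medians 0.43 and 0.51), c3a.2 and c3b.2 in both. Of all genes, 8.89% and 8.67% were higher there, so a count of 2 is too small to be set apart from that share. In experiment 2 edgeR called 0 of 8 against conventional heads (median 0.67). At an unadjusted p below 0.05 in edgeR there were 4 of the 8, and the share of all genes at that level was not counted. DESeq2 called c3a.2 and c3b.1 against the same heads, and limma voom called none of the 5 described next. Against re-colonized heads of experiment 2, 6 of 8 were higher (median 1.26), beside 3.25% of all genes.

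c3a.2 encodes a copy of C3, the protein on which the complement pathways converge. c3a.2 ran from 11.9 to 36.6 (median 15.03) CPM in axenic libraries of experiment 1, against 1.82 to 7.69 (median 4.88) in re-colonized and 3.71 to 8.02 (median 5.32) in conventional ones. c3a.2 in experiment 2 stood at 19.3, 33.2, 53.1 and 72.8 CPM in axenic libraries 1, 3, 4 and 7, against 3.36 to 20.3 (median 9.51) in re-colonized and 9.97 to 26.3 (median 23.4) in conventional ones. Axenic libraries of c3a.2 lay above every colonized library in experiment 1, and in experiment 2 they overlapped both colonized groups. For c3a.2, edgeR gave log2 fold changes (± SE) of 1.85 ± 0.28 (adjusted p = 4.43e-05) against conventional and 2.00 ± 0.28 (adjusted p = 1.83e-05) against re-colonized heads in experiment 1. c3a.2 had log2 fold changes of 1.25 ± 0.41 (adjusted p = 0.07) against conventional and 2.12 ± 0.41 (adjusted p = 0.00401) against re-colonized heads in experiment 2. c3a.2 against re-colonized heads of experiment 2 lost its call without axenic 7 (adjusted p = 0.058).

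c3b.1 and c3b.2 are neighbouring copies of a second C3 family. c3b.2 ran from 49.8 to 99.8 (median 61.7) CPM in axenic, 24.3 to 63.4 (median 45.9) in re-colonized and 25.6 to 49.3 (median 36.1) in conventional libraries of experiment 1. c3b.2 in experiment 2 stood at 52.3, 53.5, 118 and 156 CPM in axenic libraries 1, 3, 4 and 7, against 17.9 to 56.9 (median 31.6) in re-colonized and 31 to 62.2 (median 50.4) in conventional ones. Axenic libraries of c3b.2 lay above every conventional library but overlapped the re-colonized ones in experiment 1, and in experiment 2 they overlapped both colonized groups. For c3b.2, edgeR gave 0.79 ± 0.20 (adjusted p = 0.00872) against conventional and 0.58 ± 0.20 (adjusted p = 0.0478) against re-colonized heads in experiment 1, and 0.98 ± 0.32 (adjusted p = 0.0703) and 1.56 ± 0.32 (adjusted p = 0.00626) in experiment 2. c3b.2 against re-colonized heads of experiment 1 lost its call without axenic A, F, G or H or re-colonized D, E, F or G, with DESeq2, with the pair of groups fitted alone or without the 2 structural RNAs (adjusted p between 0.051 and 0.14). c3b.2 against re-colonized heads of experiment 2 lost its call without axenic 7 (adjusted p = 0.0992). c3b.2 with the hepatocyte marker sum as a covariate had log2 fold changes of -0.11 (adjusted p = 0.795) against conventional heads of experiment 1 and -0.076 (adjusted p = 0.822) against re-colonized heads of experiment 1, which ended both calls. The margin over re-colonized libraries was narrow for c3b.1. c3b.1 ran from 34.9 to 59.5 (median 43.9) CPM in axenic, 17.9 to 47 (median 37.6) in re-colonized and 20.4 to 50.1 (median 35.1) in conventional libraries of experiment 1. c3b.1 in experiment 2 stood at 50.1, 55.2, 105 and 97.7 CPM in axenic libraries 1, 3, 4 and 7, against 18.9 to 50.05 (median 28.7) in re-colonized and 26.7 to 57.3 (median 38.3) in conventional ones. Axenic libraries of c3b.1 overlapped both colonized groups in experiment 1, and in experiment 2 they lay above every re-colonized library but overlapped the conventional ones. For c3b.1, edgeR gave 0.39 ± 0.21 (adjusted p = 0.227) against conventional and 0.40 ± 0.21 (adjusted p = 0.208) against re-colonized heads in experiment 1, and 0.90 ± 0.28 (adjusted p = 0.0536) and 1.30 ± 0.27 (adjusted p = 0.00783) in experiment 2. c3b.1 against re-colonized heads of experiment 2 lost its call without axenic 4 or 7 or without re-colonized 1 and 7 together (adjusted p between 0.05 and 0.0798).

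c3a.1 lies in the same cluster as c3a.2. c3a.1 ran from 140.1 to 261 (median 216) CPM in axenic, 68.1 to 208 (median 149) in re-colonized and 126 to 208 (median 166) in conventional libraries of experiment 1. c3a.1 in experiment 2 stood at 218, 233, 533 and 536 CPM in axenic libraries 1, 3, 4 and 7, against 91.9 to 297 (median 159) in re-colonized and 215 to 364 (median 302) in conventional ones. Axenic libraries of c3a.1 overlapped both colonized groups in both experiments. For c3a.1, edgeR gave 0.30 ± 0.22 (adjusted p = 0.388) against conventional and 0.58 ± 0.22 (adjusted p = 0.0721) against re-colonized heads in experiment 1, and 0.36 ± 0.31 (adjusted p = 0.556) and 1.21 ± 0.31 (adjusted p = 0.0264) in experiment 2. c3a.1 against re-colonized heads of experiment 2 lost its call without axenic 4 or 7 or re-colonized 1, 3, 5, 6 or 7, with the pair of groups fitted alone or without re-colonized 1 and 7 together (adjusted p between 0.058 and 0.231). C5 starts the membrane attack complex. c5 ran from 24.1 to 47.5 (median 38.7) CPM in axenic, 15.7 to 34.6 (median 30.6) in re-colonized and 20.4 to 32.5 (median 25.5) in conventional libraries of experiment 1. c5 in experiment 2 stood at 30.03, 38.7, 93.2 and 102 CPM in axenic libraries 1, 3, 4 and 7, against 11.8 to 34.7 (median 17.2) in re-colonized and 18.9 to 50.9 (median 30.9) in conventional ones. Axenic libraries of c5 overlapped both colonized groups in both experiments. For c5, edgeR gave 0.50 ± 0.19 (adjusted p = 0.0763) against conventional and 0.45 ± 0.19 (adjusted p = 0.111) against re-colonized heads in experiment 1, and 1.003 ± 0.32 (adjusted p = 0.0661) and 1.79 ± 0.32 (adjusted p = 0.00231) in experiment 2.

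c3a.6 was called at 1.21 ± 0.26 (adjusted p = 0.00929) against re-colonized heads of experiment 2, where c3a.3 had 1.15 ± 0.33 (adjusted p = 0.0542). c3a.6 against re-colonized heads of experiment 2 lost its call without axenic 4 or 7 or without re-colonized 1 and 7 together (adjusted p between 0.0573 and 0.0806). Factor B (cfb), the protease of the alternative pathway, was not called, with 0.02 to 0.73 over the 4 comparisons.

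Of the c3a copies, c3a.2 had the largest log2 fold change in all 4 comparisons, and its share was examined after these values had been seen. On chromosome 1 (GRCz11, from the deposited coordinates) c3a.2 lies at 56229674 to 56266732 on the plus strand, 7881 bases before c3a.3 at 56274613 to 56320570, with c3a.1 at 56130222 to 56176977 and c3a.6 at 56036644 to 56080166 on the minus strand. Because the copies are alike, reads could be split between them in a way the deposited counts do not show. The share of c3a.2 in the summed CPM of the 4 copies was 3.77% to 8.48% in axenic libraries of experiment 1, against 1.69% to 3.39% in re-colonized and 1.62% to 2.502% in conventional libraries. In experiment 2 it was 6.01% to 9.28% in axenic libraries, against 2.27% to 6.07% in re-colonized and 2.15% to 6.12% in conventional ones. Axenic libraries stood above all others in experiment 1 and above nearly all in experiment 2. The mean share differed by 3.62 percentage points against conventional heads of experiment 1 (5.77% ± 1.73 and 2.15% ± 0.38, SD, n = 6 each; exact two-sided permutation p = 0.00216, the smallest this design allows) and by 3.47 points against re-colonized heads (2.31% ± 0.69; exact p = 0.00216). In experiment 2 it differed by 3.39 points against conventional (7.77% ± 1.75, n = 4, and 4.38% ± 1.46, n = 7; exact p = 0.0182) and by 3.66 points against re-colonized heads (4.11% ± 1.39, n = 7; exact p = 0.0121). Over these 4 tests the Benjamini-Hochberg adjusted values, after the exact permutation tests, were 0.00433, 0.00433, 0.0182 and 0.0162. Because c3a.2 was chosen by its values in these same libraries, the p-values of these permutation tests are descriptive and no separate support for a difference between copies.

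In the terminal pathway, whose proteins form a pore in the microbial membrane, 1 of 6 was higher in each comparison of experiment 1, c9 in both (medians 0.35 and 0.37). In experiment 2, 1 of 6 was higher against conventional heads (c7a, median 0.56) and 2 of 6 against re-colonized heads (c8b and c9, median 0.90). Shares over all genes were 8.89% and 8.67% higher in experiment 1 and 3.99% and 3.25% in experiment 2. Counts of 1 or 2 of 6 are too small to be set apart from them.

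C9 is the subunit that polymerises into the pore. c9 ran from 42.96 to 71.4 (median 59.9) CPM in axenic libraries of experiment 1, against 18.4 to 52.4 (median 35.4) in re-colonized and 23.1 to 45.2 (median 37.6) in conventional ones. c9 in experiment 2 stood at 92.8, 94.5, 186 and 195 CPM in axenic libraries 1, 3, 4 and 7, against 20.8 to 63.95 (median 37.8) in re-colonized and 41.1 to 100.4 (median 74.7) in conventional ones. Axenic libraries of c9 overlapped both colonized groups in experiment 1, and in experiment 2 they lay above every re-colonized library but overlapped the conventional ones. For c9, edgeR gave log2 fold changes (± SE) of 0.69 ± 0.21 (adjusted p = 0.0247) against conventional and 0.72 ± 0.21 (adjusted p = 0.0174) against re-colonized heads in experiment 1. c9 had log2 fold changes of 0.94 ± 0.29 (adjusted p = 0.056) against conventional and 1.84 ± 0.29 (adjusted p = 0.000736) against re-colonized heads in experiment 2. c9 against conventional heads of experiment 1 lost its call without axenic A or F or conventional C, F or G (adjusted p between 0.0532 and 0.0661). c9 with the hepatocyte marker sum as a covariate had log2 fold changes of -0.13 (adjusted p = 0.781) against conventional heads of experiment 1 and 0.12 (adjusted p = 0.741) against re-colonized heads of experiment 1, which ended both calls.

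c8b encodes a chain of C8, and c8a lies within it on the opposite strand (chromosome 2, 1486822 to 1499585 within 1478225 to 1518361), so counts of both are uncertain. c8b ran from 4.92 to 8.01 (median 6.08) CPM in axenic, 3.49 to 6.73 (median 5.57) in re-colonized and 3.81 to 5.91 (median 4.85) in conventional libraries of experiment 1. c8b in experiment 2 stood at 3.34, 4.499, 6.24 and 11.7 CPM in axenic libraries 1, 3, 4 and 7, against 2.18 to 3.27 (median 3.11) in re-colonized and 2.08 to 5.05 (median 4.59) in conventional ones. Axenic libraries of c8b overlapped both colonized groups in experiment 1, and in experiment 2 they lay above every re-colonized library but overlapped the conventional ones. For c8b, edgeR gave 0.35 ± 0.16 (adjusted p = 0.148) against conventional and 0.21 ± 0.16 (adjusted p = 0.398) against re-colonized heads in experiment 1, and 0.64 ± 0.28 (adjusted p = 0.205) and 1.19 ± 0.28 (adjusted p = 0.0181) in experiment 2. c8b against re-colonized heads of experiment 2 lost its call without axenic 7, with limma voom or without re-colonized 1 and 7 together (adjusted p between 0.0737 and 0.296).

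C7 anchors the growing complex in the membrane. c7a ran from 2.46 to 5.33 (median 2.72) CPM in axenic, 1.95 to 3.26 (median 2.24) in re-colonized and 2.04 to 3.37 (median 2.403) in conventional libraries of experiment 1. c7a in experiment 2 stood at 3.24, 2.7, 2.75 and 5.05 CPM in axenic libraries 1, 3, 4 and 7, against 1.37 to 2.96 (median 2.33) in re-colonized and 0.404 to 2.31 (median 1.42) in conventional ones. Axenic libraries of c7a overlapped both colonized groups in experiment 1, and in experiment 2 they lay above every conventional library but overlapped the re-colonized ones. For c7a, edgeR gave 0.30 ± 0.21 (adjusted p = 0.364) against conventional and 0.43 ± 0.21 (adjusted p = 0.171) against re-colonized heads in experiment 1, and 1.29 ± 0.34 (adjusted p = 0.0247) and 0.61 ± 0.34 (adjusted p = 0.427) in experiment 2. c7a against conventional heads of experiment 2 lost its call without axenic 7 or conventional 3 or 4 or with the pair of groups fitted alone (adjusted p between 0.0546 and 0.191). c7a with the hepatocyte marker sum as a covariate had a log2 fold change of 1.19 (adjusted p = 0.0754) against conventional heads of experiment 2, which ended the call. c6 had the lowest log2 fold changes of experiment 2 among the 43, at -0.28 ± 0.28 (adjusted p = 0.635) against conventional and -0.05 ± 0.28 (adjusted p = 0.959) against re-colonized heads, and was not called. c8a and c8g were not called either, with 0.16 to 1.22 over the 4 comparisons.

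Factor H (cfh), the plasma inhibitor of the alternative pathway, was called only against re-colonized heads of experiment 2. cfh ran from 15.9 to 27.7 (median 17.4) CPM in axenic, 13.2 to 25.4 (median 15.2) in re-colonized and 10.9 to 22.6 (median 17.6) in conventional libraries of experiment 1. cfh in experiment 2 stood at 13.2, 14.2, 34.3 and 38.3 CPM in axenic libraries 1, 3, 4 and 7, against 5.15 to 16.9 (median 9.47) in re-colonized and 13.4 to 28.8 (median 19.7) in conventional ones. Axenic libraries of cfh overlapped both colonized groups in both experiments. For cfh, edgeR gave 0.11 ± 0.17 (adjusted p = 0.73) against conventional and 0.12 ± 0.17 (adjusted p = 0.691) against re-colonized heads in experiment 1, and 0.30 ± 0.33 (adjusted p = 0.661) and 1.27 ± 0.32 (adjusted p = 0.0246) in experiment 2. cfh against re-colonized heads of experiment 2 lost its call without axenic 4 or 7 or re-colonized 1, 3, 5, 6 or 7. The call was also lost without re-colonized 1 and 7 together or with replicate numbers as a block (adjusted p between 0.0554 and 0.261 over all of these).

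Re-colonized and conventional heads were compared to ask whether colonization on day 1 gave the same levels as conventional colonization. In experiment 1 edgeR called 0 of 42 members (0.0101% of all genes higher, 0.00507% lower), with 0 at an unadjusted p below 0.05, and DESeq2 and limma voom also called 0. Their median log2 fold change (re-colonized over conventional) was 0.03. In experiment 2 edgeR again called 0 of 43 (0% of all genes in either direction), and the median was -0.58. At an unadjusted p below 0.05 in edgeR there were 24 members, 1 above 0 (c7a) and 23 below 0. The share of all genes at that unadjusted level was not counted, so the 24 cannot be set beside the 0%. The values ran lower in re-colonized heads in 37 of 43 members. DESeq2 and limma voom each called 1 gene, serpina1l, at -0.88 (adjusted p = 0.0357) and -0.93 (adjusted p = 0.0475). c8a was at -0.999 ± 0.31 (adjusted p = 0.265) and cfh at -0.98 ± 0.28 (adjusted p = 0.255). Without re-colonized 1 and 7 the median was -0.40 with 0 calls. Over the members re-colonized 1 was the lowest of its group in 23 of 43 and re-colonized 7 in 10.

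Whether the 2 experiments differed in these responses was tested as an interaction over both tables. No member was called in edgeR for axenic against conventional heads (0.099% of all genes) or for axenic against re-colonized heads (0%), and 0 were called by limma voom. At an unadjusted p below 0.05 in edgeR there were 3 and 19 members. The share of all genes at that unadjusted level was not counted, so 3 and 19 cannot be set beside the shares above. For axenic against re-colonized heads the members' median difference (experiment 2 minus experiment 1) was 0.77 on the log2 scale, and the highest, 1.85, was that of tfa (adjusted p = 0.167). Library preparation, laboratory and experiment cannot be told apart in that comparison.

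The spread between libraries was wide in experiment 2. The median coefficient of variation of the members was 46.99% in axenic, 38.5% in re-colonized and 29.3% in conventional libraries, against 25.8% in axenic, 28.2% in re-colonized and 31.7% in conventional libraries over all genes with a mean of at least 1 CPM. In experiment 1 it was 22.9% in axenic, 30.5% in re-colonized and 21.2% in conventional libraries, against 17.2%, 17.7% and 16.1% over all genes in axenic, re-colonized and conventional libraries. Axenic libraries 4 and 7 were the highest pair in 30 of the 43 members, while rbp4, ambp and ahsg1 were highest in axenic 1 and 3. Axenic 1 was the lowest of the 4 in 31 members. Without axenic 7 there were 2 calls against conventional heads, a2ml and A2ML1, and 8 against re-colonized heads, a2ml, A2ML1, tfa, cp, ahsg1, c5, c9 and serpina1l. Without axenic 4 they were 6 and 15, without axenic 1 they were 15 and 31, and without conventional 3 they were 5 against conventional heads. Calls over all genes against conventional heads moved too, from 6.13% with every library to 1.91% without axenic 7. Those shares were 4.35% without axenic 4, 5.43% without axenic 1 and 4.08% without conventional 3. Without re-colonized 1 and 7 together, 15 members were called against re-colonized heads. In experiment 1 the calls against conventional heads were 9 of 42 without conventional C and 9 without conventional F, and those against re-colonized heads stayed between 8 and 16 with any library left out. Calls over all genes against conventional heads were 13.6% and 13.1% without conventional C and F, and 15.6% with every library.

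**Figure D3:**
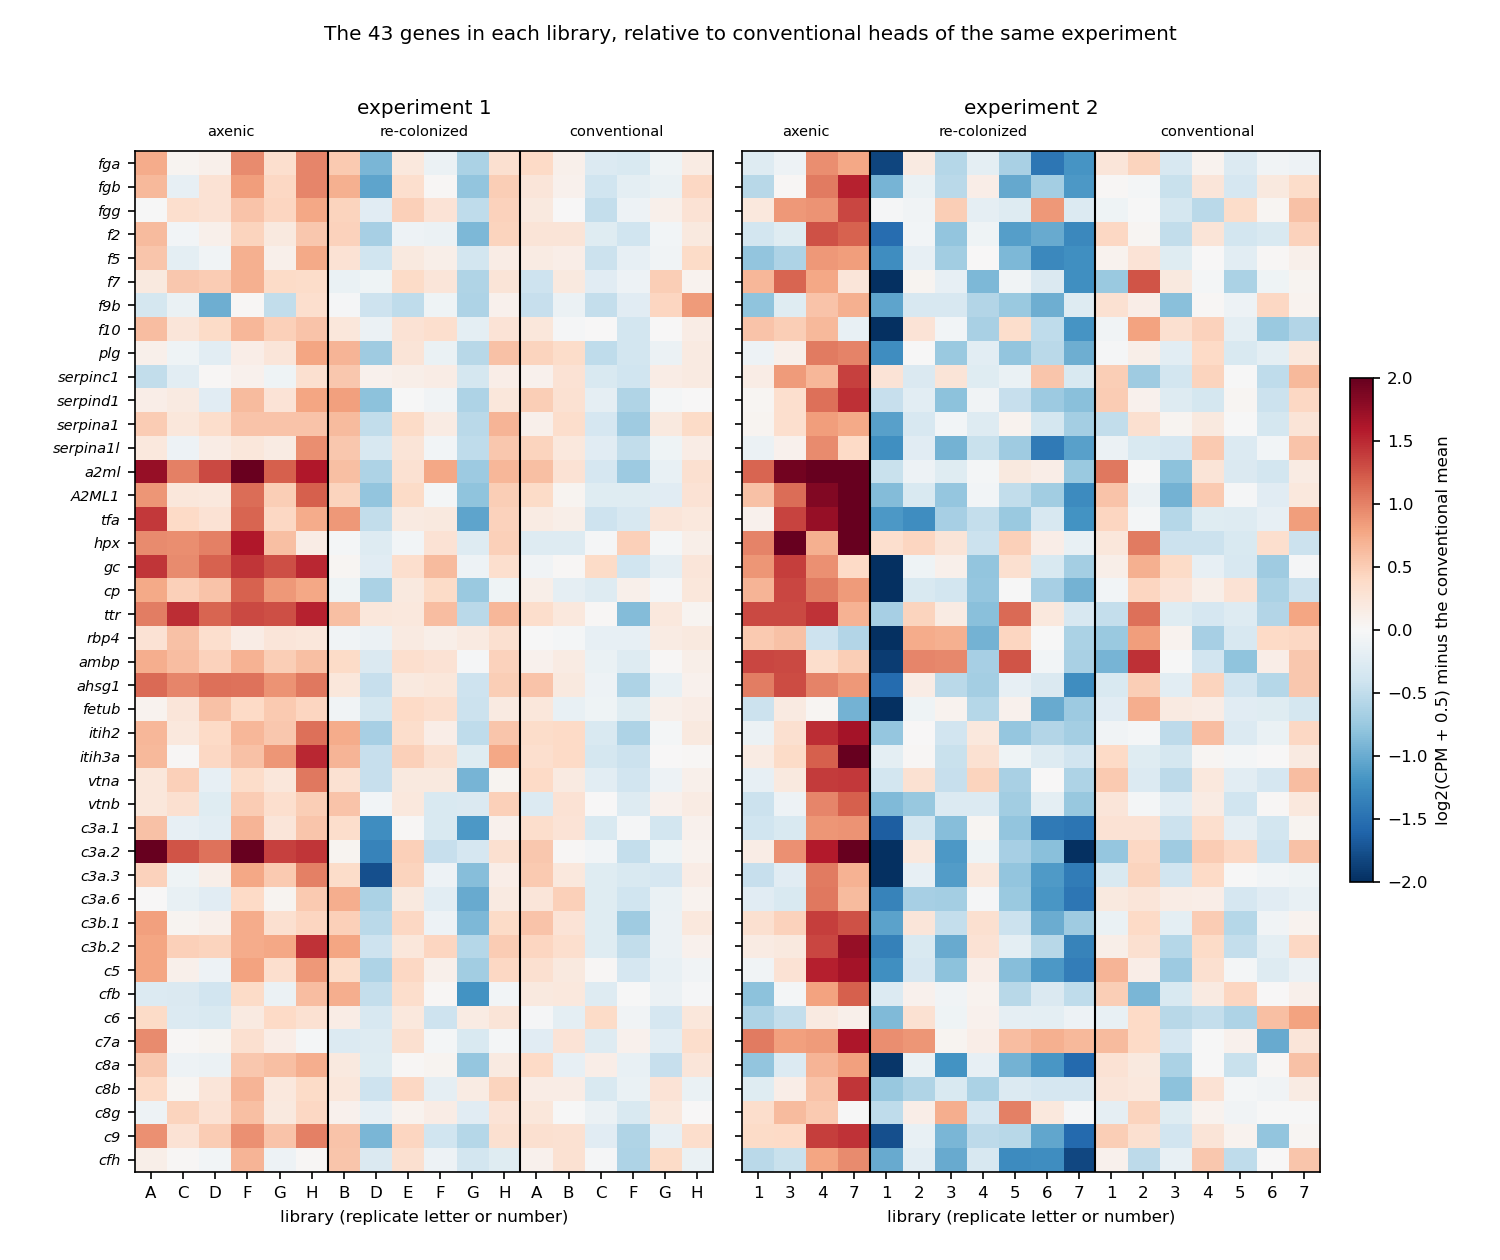
Each of the 43 genes (down) in each of the 36 libraries (across), as log2(CPM + 0.5) minus the mean of the conventional libraries of the same experiment, with groups from left to right axenic, re-colonized and conventional. Red is higher and blue lower than conventional. The bands of a2ml, cp and ahsg1 are red in every axenic library of both experiments, and in experiment 2 most genes are red in axenic 4 and 7 and blue in re-colonized 1 and 7.

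The summed hepatocyte markers had their highest median in axenic libraries of experiment 1 and in conventional libraries of experiment 2, but most single markers were not called. Of 25 tested markers, 7 were higher and 1 lower against conventional heads of experiment 1 (median log2 fold change 0.30), beside 8.89% and 6.71% of all genes. Against re-colonized heads 4 were higher and 2 lower (median 0.13), beside 8.67% and 8.27%. In experiment 2, 4 were higher against conventional heads (median -0.09) and 5 against re-colonized heads (median 0.25), with 0 lower. Over all genes 3.99% and 3.25% were higher there. Among the higher markers, the apolipoprotein gene apoa2 had 1.38 (adjusted p = 7.57e-07) and 1.92 (adjusted p = 0.0207) against conventional heads of experiments 1 and 2, and the liver fatty acid-binding protein gene fabp10a 1.56 (adjusted p = 1.65e-05) and 2.03 (adjusted p = 0.0488). With the log2 sum of hepatocyte markers as a covariate, 6 members were called against conventional heads of experiment 1: c3a.2, gc and ttr higher, and f9b, plg and serpina1l lower, with a median of -0.17. Over all genes 7.05% were called with this covariate, 785 higher and 606 lower of 19727. The 3 members called each way are too few to be set apart from that share. Against re-colonized heads 7 members were called, with ahsg1, c3a.2, cp and gc higher and plg, serpina1l and serpinc1 lower, and the median was -0.02. Over all genes 10.3% were called there, 990 higher and 1050 lower. Counts of 4 and 3 members are too small to be set apart from that share. The same covariate left 13 members higher and 0 lower against conventional heads of experiment 2 (median 0.85), and 25 higher and 0 lower against re-colonized heads (median 1.11). Both counts include hpx, with the limit of its filter given above. Over all genes 4.29% were called against conventional heads of experiment 2 with the covariate, 604 higher and 261 lower of 20169. gc and c3a.2 were the members called higher with the covariate in all 4 comparisons. In experiment 1 the marker sums of axenic and conventional libraries did not overlap, so marker level and group cannot be told apart in that comparison. Of the re-colonized libraries only H, at 4233 CPM, reached the axenic range, which began at 4057 CPM. Marker level and group are therefore hard to tell apart against re-colonized heads too. The marker sum also holds apoa1b, apoa2 and agt, which stand in the list of other plasma protein genes as well. The covariate is therefore not free of plasma protein genes.

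**Figure D4:**
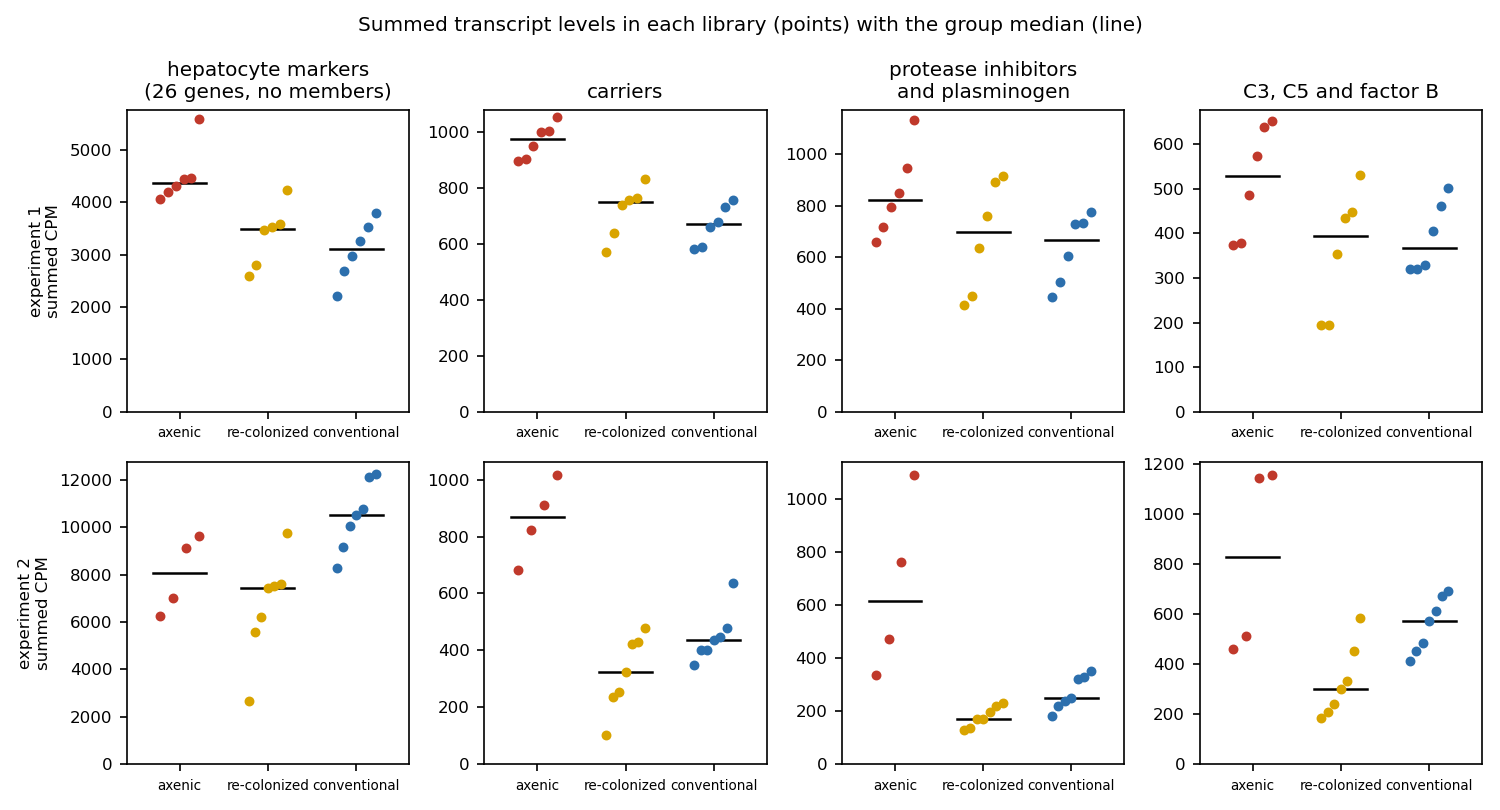
Summed CPM in each library (points) with the group median (line) for 26 hepatocyte markers and 3 of the gene groups, in experiment 1 (top) and experiment 2 (bottom), with axenic, re-colonized and conventional libraries from left to right. The hepatocyte sum is highest in axenic libraries of experiment 1 (median 4374 CPM) and highest in conventional libraries of experiment 2 (median 10494 CPM), while carriers are highest in axenic libraries of both.

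**Figure D5:**
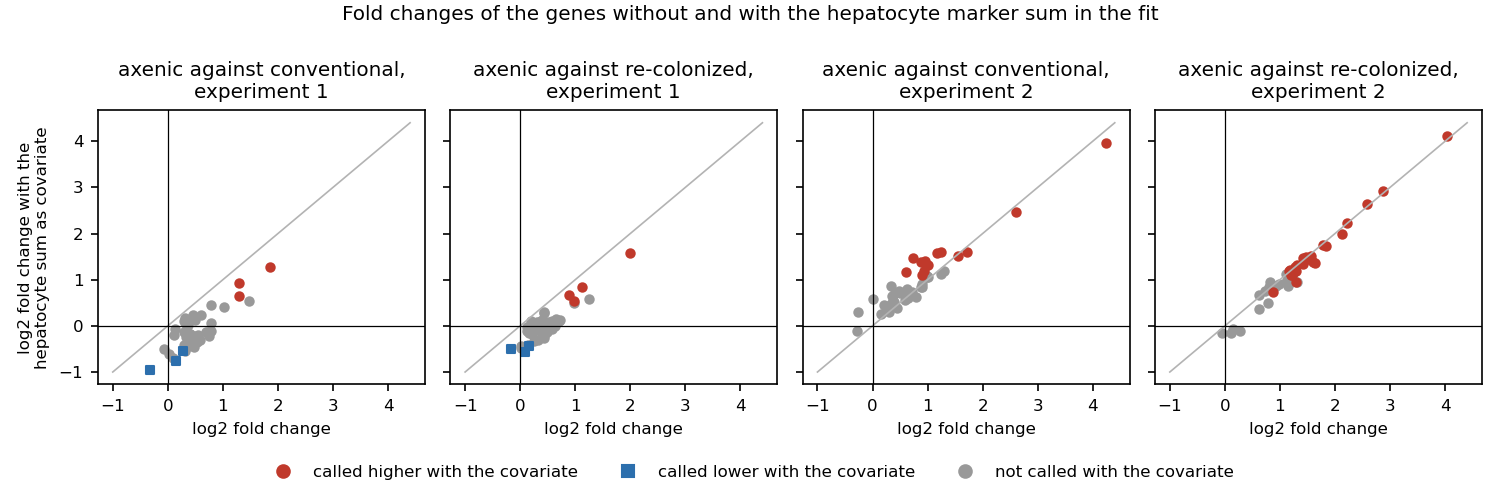
Log2 fold changes (axenic over the other group) of the genes without the covariate (horizontal axis) and with the hepatocyte marker sum as a covariate (vertical axis), and the line of equality in grey. All points of experiment 1 fall below the line, while in experiment 2 they lie near it, and mostly above it against conventional heads.

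Markers of other cell types also moved with the groups, and their part in the results on plasma protein genes was not tested. Exocrine pancreas markers were higher in 7 of 13 against conventional heads of experiment 1 (median 0.42) and in 0 of 13 in experiment 2 (median -0.31), with sums of 11540 to 17354 CPM in axenic and 10066 to 14293 CPM in conventional libraries of experiment 1. Matrix genes of fibroblasts were higher in 6 of 6 in all 4 comparisons, with medians of 1.71 and 1.91 against conventional heads of experiments 1 and 2 and, in experiment 2, sums of 6153 to 8092 CPM in axenic against 1026 to 3099 CPM in conventional libraries. Skeletal muscle markers were higher in 7 of 7 against conventional heads of experiment 1 and 0 of 7 in experiment 2. Neutrophil markers were lower in 3 of 5, with sums of 20.8 to 28.1 CPM in axenic and 38.4 to 52.5 CPM in conventional libraries, and macrophage and microglia markers in 5 of 6 tested (9 listed) against conventional heads of experiment 1, and in 1 of 5 and 2 of 7 in experiment 2. Macrophage and microglia sums overlapped in experiment 1, at 138.4 to 235.6 CPM in axenic and 163.1 to 240.9 CPM in conventional libraries. Of all genes, 8.89% were higher and 6.71% lower against conventional heads of experiment 1, and 3.99% and 2.15% in experiment 2. The neutrophil peroxidase gene mpx had -1.94 (adjusted p = 4.99e-07) and -1.60 (adjusted p = 0.0204), and mpeg1.2, a macrophage marker, -1.70 (adjusted p = 0.000102) and -2.94 (adjusted p = 0.00155).

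Genes that act on or beside these proteins were called in both directions, where over all tested genes 8.89% were higher and 6.71% lower against conventional heads of experiment 1, 8.67% and 8.27% against re-colonized heads, 3.99% and 2.15% against conventional heads of experiment 2 and 3.25% and 0.64% against re-colonized heads of experiment 2. Of 20 tested acute phase regulators and targets, 3 were higher and 12 lower against conventional heads of experiment 1 (median -0.37), and 2 higher and 10 lower against re-colonized heads (median -0.37). cebpb, a transcription factor that drives acute phase genes in mammals, had -0.96 (adjusted p = 9.21e-05) and -1.09 (adjusted p = 1.69e-05), and socs3a, the feedback inhibitor of STAT3 signalling, -1.35 (adjusted p = 9.85e-05) and -1.18 (adjusted p = 0.000394). In experiment 2, 0 higher and 2 lower of 21 were called against conventional heads, with cebpd at -1.36 (adjusted p = 0.034), and 1 higher and 0 lower against re-colonized heads. Of 20 tested transcription factors of the liver, 1 was higher and 5 lower against conventional heads of experiment 1, and 0 of 22 in either direction in experiment 2, by edgeR. Their sums in experiment 1 were 329.3 to 358.4 CPM in axenic and 376.3 to 401.2 CPM in conventional libraries. creb3l3a was the higher one, at 1.18 (adjusted p = 0.0178). The lower ones included cebpb, creb3l3l at -0.31 (adjusted p = 0.0249) and pparaa at -0.33 (adjusted p = 0.0253). Among 26 other plasma protein genes, 11 were higher and 3 lower against conventional heads of experiment 1 (median 0.41) and 6 of 25 higher and 1 lower in experiment 2 (median 0.87), led by serpinf1, the pigment epithelium-derived factor gene, at 2.09 in experiment 1 (adjusted p = 1.36e-05) and higher in experiment 2 too (adjusted p = 0.000145). Other clotting genes showed 4 of 21 higher and 2 lower against conventional heads of experiment 1 (median 0.14). f7i, a factor VII-like gene, was higher at 1.48 (adjusted p = 1.54e-05), and f13a1b, which encodes the A chain of factor XIII, was lower at -0.65 (adjusted p = 8.71e-06). Other complement genes showed 2 of 15 higher and 0 lower in each of the 4 comparisons (medians 0.12 to 0.50), with cfd, the factor D gene, at 0.49 (adjusted p = 0.0267) against conventional heads of experiment 1. Counts of 1 or 2 in lists of 15 to 22 genes lie near the shares over all genes in experiment 1 and are no result about those lists. The plasma protein list shares apoa1b, apoa2 and agt with the hepatocyte list and lect2l with the neutrophil list.

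On the deposited coordinates several members are neighbours that share a name or ancestry. fga and fgb lie 4004 bases apart and f7 and f10 10656 bases apart on chromosome 1, c3b.1 and c3b.2 4946 bases and ahsg1 and fetub 6534 bases apart on chromosome 22, and serpina1 and serpina1l 2902 bases apart on chromosome 20. The calls of neighbours were not always shared: ahsg1 was called in all 4 comparisons and fetub in none, f10 in both comparisons of experiment 1 and f7 in none of them. The log2 fold changes of f7 there, 0.46 against conventional and 0.44 against re-colonized heads, were near the 0.50 and 0.36 of f10. That contrast in calls rests on the threshold. The difference within these pairs was not tested. Of the 43 members, 14 overlap another listed gene. For 6 of them, ambp, c5, f2, f9b, gc and itih3a, the other gene is listed over more than 1 Mb, such as kat5b (43152397 bases, on the strand of gc and c9) and atp2b2 (21932271 bases, on the strand of itih3a), and whether reads were shared there was not tested. The other 8, c6, c8a, c8b, c9, itih2, plg, serpind1 and vtna, overlap genes listed over shorter spans. Of these, c9 also overlaps kat5b, and itih2 also overlaps pimr168 (45213234 bases, on the opposite strand). Close copies could share reads, and the use of strand in counting is not stated here, which makes values of copies and of overlapping genes uncertain.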

How the data were processed

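Transcripts were counted in pooled heads of zebrafish larvae. Experiment 1 used RNA prepared by a contract laboratory for stranded, paired-end total RNA libraries without ribosomal RNA, and experiment 2 used RNA from the authors' own laboratory for polyA libraries, per the labels' protocols. The authors deposited estimated counts per gene, with no normalization, in 1 table per experiment. Per the submitters' processing notes, bcl2fastq, STAR 2.5.3a and Partek 8.0.19.0428 were used, with the GRCz11 build. The sources used here do not state the annotation or the strand setting of the counting. Of all values, 9.44% in experiment 1 and 17.3% in experiment 2 lay more than 0.01 from a whole number, where the design had assumed whole counts, and they were rounded before the tests.

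Groups and replicate letters or numbers came from the labels. Every column of values was mapped to a sample. No 2 libraries agreed within sampling noise (lowest chi-square per degree of freedom 5.24 in experiment 1 and 27.3 in experiment 2). Each experiment was fitted on its own with edgeR 4.0.16 (R 4.3.3): filterByExpr left 19727 and 20169 genes, scaling was TMM, and quasi-likelihood tests were two-sided with Benjamini-Hochberg adjustment over all genes tested. The SE of a log2 fold change is its size over the square root of F. CPM are from total counts times the TMM factors. Experiments were compared through an interaction term over 21208 genes matched by symbol. Exact permutation tests used scipy 1.17.1. The fits were tested on simulated data. At these depths 1 count is a small part of a CPM, and intervals on counts cover counting error only.

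Alternatives were DESeq2 1.42.0, limma voom (limma 3.58.1), DESeq2 size factors, no filter or a mean of 1 CPM, the compared pair of groups alone, a replicate block, the hepatocyte marker sum as a covariate, leaving out 2 structural RNAs (RF00017 and rn7sk) or re-colonized 1 and 7, and leaving out each library. The genes and lists were chosen with earlier results of these data known. Genes were described in full where they were called against both colonized groups of experiment 1 or in any comparison of experiment 2, or had the highest mean CPM of their role group, up to 5 a role group by smallest p. Of the other lists up to 4 genes were eligible to be named.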

Additional observations from a re-analysis of the deposited data

Results flagged for a closer look

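Of 258 combinations of a gene and a group of 4 to 7 libraries, 15 held 1 library whose CPM stood far from the rest of its group by Dixon's criterion, where chance alone gives about 1 in 20. In experiment 1, serpina1l was at 359 CPM in axenic H (the other axenic libraries 176 to 221) and c3b.2 at 99.8 CPM in the same library (others 49.8 to 62.9), as was plg at 97.95 CPM (others 48.8 to 66.9). ttr was at 7.63 CPM in conventional F, against 14.5 to 18.3 in the other conventional libraries. c7a was at 5.33 CPM in axenic A (others 2.46 to 3.27) and at 3.26 CPM in re-colonized E (others 1.95 to 2.44), and cfh was at 27.7 CPM in axenic F (others 15.9 to 18.7).

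In experiment 2, conventional 2 stood apart for 5 genes: f7 at 38.9 CPM (others 9.33 to 18.2), ambp at 51.1 CPM (others 9.33 to 26.6), fetub at 10775 CPM (others 5109 to 7439), c8g at 2.32 CPM (others 1.25 to 1.66) and hpx at 0.885 CPM (others 0 to 0.353). a2ml was at 46.7 CPM in conventional 1 (others 12.4 to 26.6). c8b was at 2.08 CPM in conventional 3 (others 3.84 to 5.05). c3a.6 was at 34.6 CPM in re-colonized 4 (others 12.6 to 21.99).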

How the results depend on the processing

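Against conventional heads of experiment 1, where 14 members were called, the replicate block gave 27, the hepatocyte marker sum as a covariate 6, and leaving out 1 library between 9 and 16. The share of all genes called there was 15.6%, 16% with the block, 7.05% with the covariate and 11.5% to 16.8% without 1 library. Against re-colonized heads the 12 calls became 23 with the replicate block and 7 with the covariate, and 8 to 16 without 1 library. Shares of all genes there were 16.9%, 11.6% with the block, 10.3% with the covariate and 13% to 18.3% without 1 library. In experiment 2 the 9 calls against conventional heads became 17 with the replicate block and 2 to 15 without 1 library, and the 27 against re-colonized heads became 15 without re-colonized 1 and 7, 30 with the block and 8 to 31 without 1 library. Against conventional heads of experiment 2, 6.13% of all genes were called, 8.45% with the block and 1.91% without axenic 7. The block also ended the calls of rbp4 against conventional heads of experiment 1 and of cfh against re-colonized heads of experiment 2. The labels do not say whether the replicate letters or numbers pair the samples. Deviations of same-numbered libraries correlated at -0.0369 to 0.231 in experiment 1 and -0.191 to 0.401 in experiment 2, not over 0.1 in every pair. Libraries with different numbers were not compared in this way, so whether the samples are paired cannot be told. Between re-colonized and conventional heads, DESeq2 and limma voom each called 1 member in experiment 2 where edgeR called 0. With the covariate, log2 fold changes of 25 of 42 members changed sign against conventional and 21 of 42 against re-colonized heads of experiment 1, and 1 and 3 of 43 (fetub, then c8g, fetub and rbp4) in experiment 2. Under the other alternatives 4 or 5 members changed sign in each comparison, none of them called there or in the values reported. Of those that were called with or without the covariate, against conventional heads these were A2ML1 at -0.13 (adjusted p = 0.795), serpina1l at -0.55 (adjusted p = 0.0255), itih3a at -0.22 (adjusted p = 0.616), c3b.2 at -0.11 (adjusted p = 0.795), c9 at -0.13 (adjusted p = 0.781) and plg at -0.76 (adjusted p = 0.0136), and against re-colonized heads plg at -0.58 (adjusted p = 0.021), serpina1l at -0.44 (adjusted p = 0.0298) and c3b.2 at -0.076 (adjusted p = 0.822). The cause was not tested. Leaving aside the covariate and the block, 9 of 14 and 8 of 12 calls of experiment 1 and 2 of 9 and 7 of 27 of experiment 2 held under all alternatives run. Low counts limit hpx in experiment 1.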
